A study of Homo sapiens with 12 samples.

Results

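The 45 genes described here encode the extracellular matrix: collagens, laminins and the glycoproteins and proteoglycans laid down with them, together with a pair of enzymes that cross-link collagen. They were taken as a list of gene symbols by function, with no threshold on their measured values, and make up 45 of the 20503 genes named on the arrays. Levels were measured in HA22T and PLC5, both cell lines from human hepatocellular carcinoma (HCC), on 12 one-color microarrays. In each line, 3 cultures had received a non-targeting siRNA pool (siControl) and 3 had received a pool against GALNT1 (siGALNT1), at 10 nM for 48 h, so every culture carried an siRNA and none was untreated. GALNT1 is an enzyme that starts O-glycan chains on proteins, and the knockdown asked which transcripts depend on it. Each line is a single line, and the triplicates are named only as such, so that p-values measure only the spread between these samples, which may be technical.

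Cells rest on matrix of several kinds. The basement membrane is a thin sheet in which a network of type IV collagen and a network of laminin, each a trimer of an alpha, a beta and a gamma chain, are joined by nidogens and by the heparan sulfate proteoglycans perlecan and agrin. The interstitial matrix is built on fibrillar collagens, whose width and spacing are set by type V and type XII collagen and by small leucine-rich proteoglycans, and whose fibrils are hardened by lysyl oxidases. In the liver most interstitial matrix is made by stellate cells and fibroblasts, while hepatocytes secrete fibronectin into plasma, and tumor cells in culture make a matrix of their own.

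Values are log2 of the processed signal of a probe minus the 75th percentile of its array, so that 0 is a bright probe's level and a difference of 1 is 2-fold; they are never set against another probe's level. Each gene is represented by the brightest of its probes. Of the 45 genes 44 could be read. COL1A1, the alpha 1 chain of type I collagen, could not, because its only probe was marked as a non-uniform spot on all 3 HA22T siGALNT1 arrays and had 1 usable value with siControl in that line. Of the 44, 28 were well above background on all 12 arrays. COL3A1, the chain of type III collagen, and FBN1, the main microfibril protein fibrillin 1, were well above background on 0 of 12 arrays. COL1A2, the alpha 2 chain of type I collagen, was above background on 1 of 3 HA22T arrays with each siRNA and on 0 of the 6 PLC5 arrays. Of the arrays, 36679 to 48873 of 58717 spots were well above background, 489 to 3633 were marked as non-uniform and 0 were saturated. All HA22T arrays shared 1 slide with the first PLC5 pair, and PLC5 replicates 2 and 3 lay on a second slide.

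To ask whether the lines differ in the matrix they express, HA22T and PLC5 were compared on the siControl arrays. The largest differences toward HA22T were those of COL12A1, LUM, COL5A2, LOXL2 and SPARC, at least 15.5-fold brighter there, whereas FN1 and the laminin chain LAMA4 were 12.1-fold and 14.7-fold brighter in PLC5. Of 41 genes counted (above background in 3 or more of the 6 arrays compared), 18 were higher in HA22T at an adjusted p below 0.05, against 11.0% of all 38011 probes counted. In the other direction 4 were higher in PLC5, also against 11.0% of all probes, and 19 did not pass; 22 called of 41 stands beside 22.0% of all probes called either way. The sign was positive, toward HA22T, for 31 of 41 genes and 52.3% of probes. The arrays of the lines did not overlap for 23 genes higher in HA22T and 6 higher in PLC5, against 22.1% and 20.3% of probes. The median difference, HA22T minus PLC5, was 0.69 on the log2 scale for the matrix genes and 0.04 for all counted probes. The test was limma's moderated test in a single fit of the 4 groups, with Benjamini-Hochberg adjustment over all counted probes. Because RNA was taken from whole cultures, fewer cells of a type and less RNA per cell cannot be told apart.

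**Figure D1:**
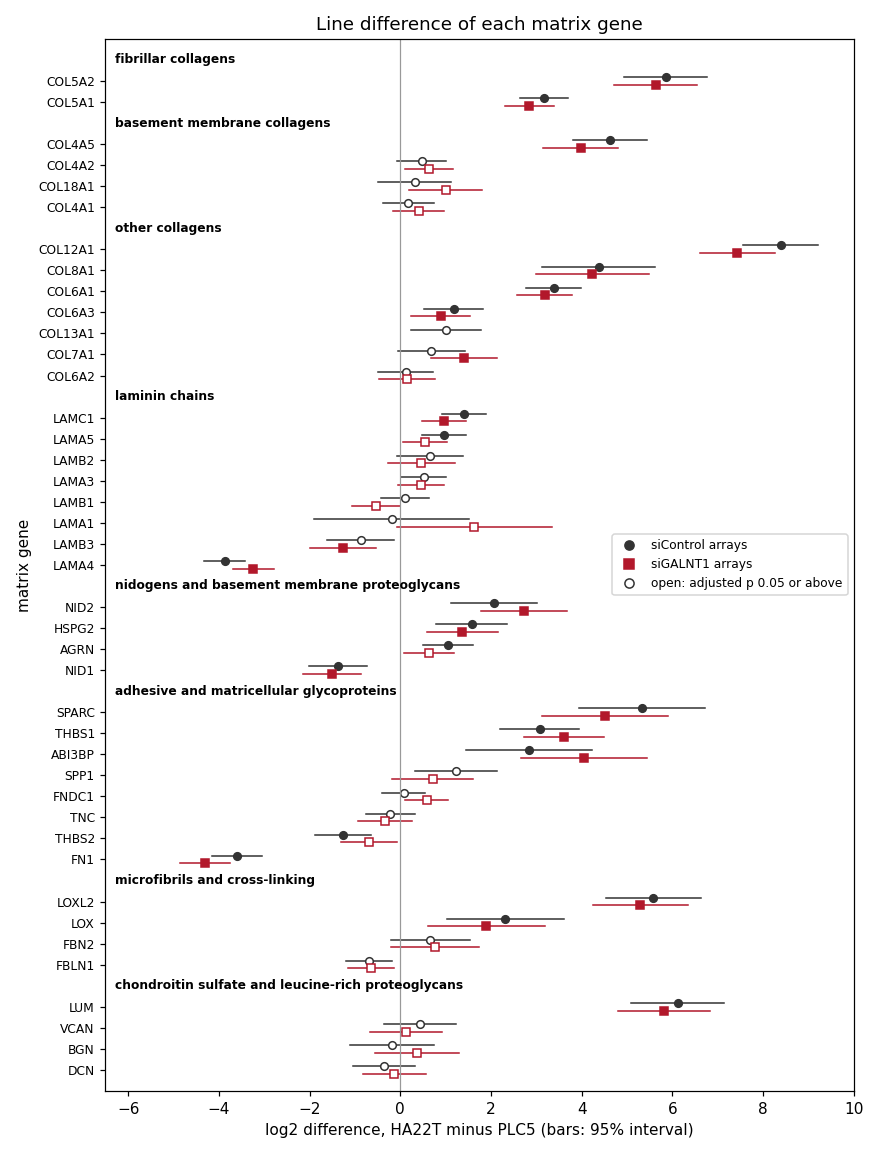
Log2 difference, HA22T minus PLC5, of each counted matrix gene by role group, on siControl arrays (circles) and siGALNT1 arrays (squares), 3 arrays per group, with bars for the 95% interval and open symbols where the adjusted p was 0.05 or above. With siControl 18 genes lay to the right and 4 to the left with filled symbols, and COL12A1 lay farthest to the right at 8.39.

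Among the fibrillar collagens, the 2 that were counted were both higher in HA22T. Type V collagen nucleates fibrils and limits their width. COL5A2, its alpha 2 chain, read −0.09, 0.27 and 0.42 on the HA22T siControl arrays and −5.24, −5.57 and −6.16 in PLC5, where 1 of 3 arrays was well above background. The lines did not overlap, and the difference was 5.86 ± 0.42 (SE), a 57.9-fold higher signal in HA22T (limma adjusted p = 2.25e-06). COL5A1, the alpha 1 chain of the same trimer, was higher in HA22T by 3.18 ± 0.24, or 9.04-fold (limma adjusted p = 3.77e-06). A second COL5A1 probe had 1 usable HA22T value and was above background on 0 PLC5 arrays, which placed the HA22T signal at least 252-fold higher, with no test. COL1A2 read −6.01, −5.10 and −5.56 in HA22T and −6.62, −6.83 and −6.75 in PLC5; it was counted in neither line difference.

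The network-forming type IV chains split. COL4A1 and COL4A2 make up the common type IV trimer and lie head to head on chromosome 13. COL4A1 read 6.02, 6.26 and 6.38 in HA22T and 6.17, 5.99 and 5.96 in PLC5, and the lines overlapped. Its difference was 0.18 ± 0.25 (limma adjusted p = 0.68), and that of COL4A2 was 0.47 ± 0.24 (limma adjusted p = 0.211). COL4A5, a chain of a rarer trimer known from kidney basement membrane, read −0.96, −0.39 and −0.66 in HA22T and −6.09, −4.89 and −4.90 in PLC5. It was higher in HA22T by 4.63 ± 0.37, or 24.7-fold (limma adjusted p = 5.83e-06), with no overlap between lines and 2 of 3 PLC5 arrays above background. COL18A1, which carries the endostatin fragment at its end, differed by 0.32 (limma adjusted p = 0.603).

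The first bases of COL4A1 and COL4A2 on opposite strands are separated by a stretch so short that both genes share it as their upstream region, and it is shown because these neighbors share it and neither was called in the line difference with either siRNA. It spans chr13:110307158-110307283 (GRCh38.p14, upstream sequences from RefSeq), is 126 bases long and is written on the strand of COL4A2, with matches to the CCAAT box (CCAAT) and the GC box (GGGCGG), searched on both strands, in capitals.
COL4A1 and COL4A2: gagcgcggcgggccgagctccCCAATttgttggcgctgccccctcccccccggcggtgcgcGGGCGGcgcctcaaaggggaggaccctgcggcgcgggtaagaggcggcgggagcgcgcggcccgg
It held 1 CCAAT box and 1 GC box, which do not overlap, and its GC content was 80.16%. Of all 27305 upstream sequences in the table, 21.57% held a CCAAT box and 33.41% a GC box in the 126 bases nearest the start. A match is a run of letters and was not tested for binding.

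All 7 of the remaining collagens were counted with siControl and 4 of them were higher in HA22T, with 0 higher in PLC5. COL12A1 encodes type XII collagen, which decorates the surface of fibrils, and showed the largest difference of the 41 genes. Its HA22T siControl values were 1.44, 2.06 and 2.17, against −6.85, −6.37 and −6.28 in PLC5, where 1 of 3 arrays was above background. The lines stood apart by 8.39 ± 0.38, or 336-fold (limma adjusted p = 1.11e-07). On a second COL12A1 probe 0 of 3 PLC5 arrays were above background, and HA22T was at least 338-fold higher (means 2.82 and −7.62, limma adjusted p = 2.41e-07). This probe was counted through HA22T alone, so its p-value sets a detected signal against background.

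COL8A1, a short-chain collagen of vessel walls and of the cornea, read 0.14, 1.61 and 1.54 in HA22T and −3.58, −3.31 and −2.94 in PLC5. HA22T replicate 1 was the lowest of its group, yet far above every PLC5 array, and the difference was 4.38 ± 0.57, or 20.8-fold (limma adjusted p = 0.00019). COL6A1, a chain of the beaded filaments of type VI collagen, read 2.18, 1.72 and 1.60 in HA22T and −1.54, −1.40 and −1.71 in PLC5, which is 3.38 ± 0.28 or 10.4-fold higher (limma adjusted p = 6.62e-06). Its partner chain COL6A3 was 2.26-fold higher in HA22T (limma adjusted p = 0.0139), with 1 of 3 PLC5 arrays above background. COL6A2, the third chain and the neighbor of COL6A1 on chromosome 21, depended on the probe. Its brightest probe differed by 0.12 ± 0.28 (limma adjusted p = 0.813), whereas the other gave 3.98 ± 0.39 (limma adjusted p = 2.56e-05). COL7A1, the anchoring fibril collagen, and COL13A1, a membrane-spanning collagen, had differences of 0.69 and 1.01 and did not pass (limma adjusted p = 0.181 and 0.066).

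**Figure D2:**
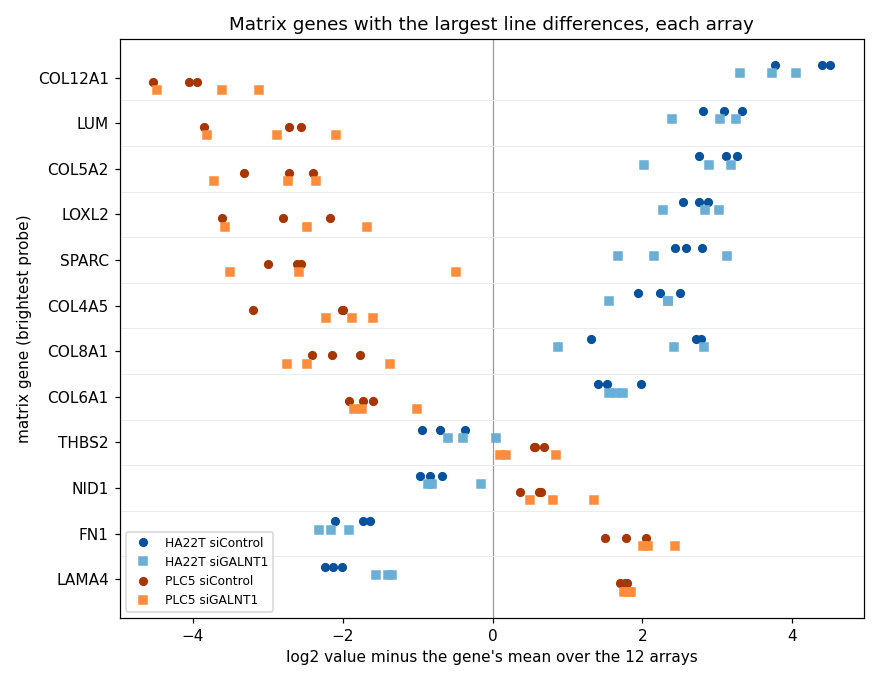
Log2 value on each of the 12 arrays, minus the gene's mean over the arrays, for the 8 matrix genes with the largest difference toward HA22T and the 4 called toward PLC5, by line and siRNA (3 points per group). With both siRNAs the HA22T points of the upper 8 genes lie right of all PLC5 points and those of the lower 4 lie left of them, although several PLC5 values of COL12A1, LUM, COL5A2, LOXL2, SPARC and COL4A5 were not well above background.

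Of the 8 laminin chains, 2 were higher in HA22T, 1 was higher in PLC5 and 5 did not pass. LAMA4, an alpha chain of the laminins of vessel and muscle basement membranes, read −3.40, −3.29 and −3.18 in HA22T and 0.59, 0.53 and 0.63 in PLC5. These replicates were tightly grouped, with the lowest within-group SD of the matrix genes (0.0865; median 0.391), and PLC5 was higher by 14.7-fold (difference −3.87 ± 0.20, limma adjusted p = 3.10e-07). The probes of LAMA4 disagreed: 1 other was also lower in HA22T, by 4.98 on the log2 scale, and another, above background on 0 of 3 HA22T siControl arrays, was at least 8.18-fold lower (means −6.39 and −2.52, limma adjusted p = 1.50e-05), whereas a further one differed by −0.16 (limma adjusted p = 0.863). LAMC1, the gamma chain of most laminins, was higher in HA22T by 1.40 ± 0.22 (limma adjusted p = 0.000718), and LAMA5, the alpha chain most widespread in adult basement membranes, by 0.96 ± 0.22 (limma adjusted p = 0.00909). LAMB3, the beta chain of the laminin that anchors epidermis, differed by −0.88 (limma adjusted p = 0.0859), LAMB1 by 0.10, LAMB2 by 0.65, LAMA3 by 0.51 and LAMA1 by −0.19. LAMA1 had usable values on 2 arrays of every group and the highest within-group SD (0.890).

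All 4 basement membrane linkers passed. The nidogens, which tie laminin to type IV collagen, went opposite ways. NID1 read −0.30, −0.14 and −0.44 in HA22T and 0.90, 1.15 and 1.18 in PLC5, a difference of −1.37 ± 0.29 or 2.59-fold higher in PLC5 (limma adjusted p = 0.00533). NID2 was higher in HA22T by 2.07 ± 0.43, or 4.2-fold (limma adjusted p = 0.00483). The proteoglycans HSPG2 (perlecan) and AGRN (agrin) were higher in HA22T by 1.58 and 1.06 (limma adjusted p = 0.00776 and 0.00994).

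Adhesive and matricellular glycoproteins, which bind cells or adjust how cells bind matrix, were called in both directions, with 3 higher in HA22T and 2 in PLC5 of 8. FN1, the gene of fibronectin, read 0.24, 0.61 and 0.70 in HA22T and 4.12, 4.38 and 3.84 in PLC5. PLC5 was higher by 12.1-fold with no overlap (difference −3.60 ± 0.25, limma adjusted p = 2.15e-06). SPARC, a collagen-binding glycoprotein, read −1.77, −1.41 and −1.62 in HA22T and −6.82, −7.21 and −6.76 in PLC5, where 0 of 3 arrays were above background. HA22T was therefore at least 15.5-fold higher (limma adjusted p = 9.73e-05), a bound set by the dimmest signals that counted as above background. SPARC was counted through its HA22T arrays alone, so its p-value sets a detected signal against background.

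The thrombospondins split as the nidogens did. THBS1, an activator of latent TGF-beta, was higher in HA22T by 3.07 ± 0.40 on its brightest probe (limma adjusted p = 0.000198) and by 6.21 ± 0.32 on the other (limma adjusted p = 3.10e-07). THBS2, an inhibitor of vessel growth, read −3.50, −3.17 and −3.74 in HA22T and −2.25, −2.25 and −2.12 in PLC5, and was 2.41-fold higher in PLC5 (difference −1.27 ± 0.28, limma adjusted p = 0.0074). ABI3BP, a matrix protein that binds the SH3 adaptor ABI3 and that the study names, read −3.06, −2.96 and −2.82 in HA22T and −4.39, −7.21 and −5.76 in PLC5, where 2 of 3 arrays were above background. The PLC5 arrays were widely spread, and the difference was 2.84 ± 0.63, or 7.15-fold (limma adjusted p = 0.00733; 2.01 with adjusted p = 0.0677 with slide as a block). FNDC1, a fibronectin type III domain protein that the study also names, read −3.07, −3.12 and −3.23 against −3.13, −3.13 and −3.37 (limma adjusted p = 0.845). SPP1, the integrin ligand osteopontin, differed by 1.23 (limma adjusted p = 0.053), and TNC, tenascin C, by −0.22.

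Both lysyl oxidases, which cross-link collagen and elastin, were higher in HA22T. LOXL2 read 0.97, 1.18 and 1.29 in HA22T and −5.19, −3.75 and −4.37 in PLC5, where 2 of 3 arrays were above background, a difference of 5.58 ± 0.48 or 47.9-fold (limma adjusted p = 8.62e-06). LOX was higher by 2.32 ± 0.59 (limma adjusted p = 0.0151; 1.99 with adjusted p = 0.094 with slide as a block). FBLN1, the basement membrane and elastic fiber protein fibulin 1, differed by −0.69 on its brightest probe (limma adjusted p = 0.0547) and was lower in HA22T on 2 others, by 1.98 and 3.17 on the log2 scale (limma adjusted p = 0.00115 and 3.03e-05). FBN2, fibrillin 2, differed by 0.67 (limma adjusted p = 0.273).

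Of the chondroitin sulfate and leucine-rich proteoglycans, 1 of 4 passed. LUM, the fibril-spacing proteoglycan lumican, read 0.11, −0.16 and 0.35 in HA22T and −6.83, −5.69 and −5.54 in PLC5, where 1 of 3 arrays was above background. HA22T was higher by 6.12 ± 0.46, or 69.4-fold (limma adjusted p = 3.53e-06). DCN, decorin, is a close relative of LUM and its neighbor on chromosome 12, with no protein-coding gene between them, and differed by −0.36 ± 0.31 (limma adjusted p = 0.468). BGN (biglycan) and VCAN (versican) differed by −0.18 and 0.44 and did not pass.

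**Figure D3:**
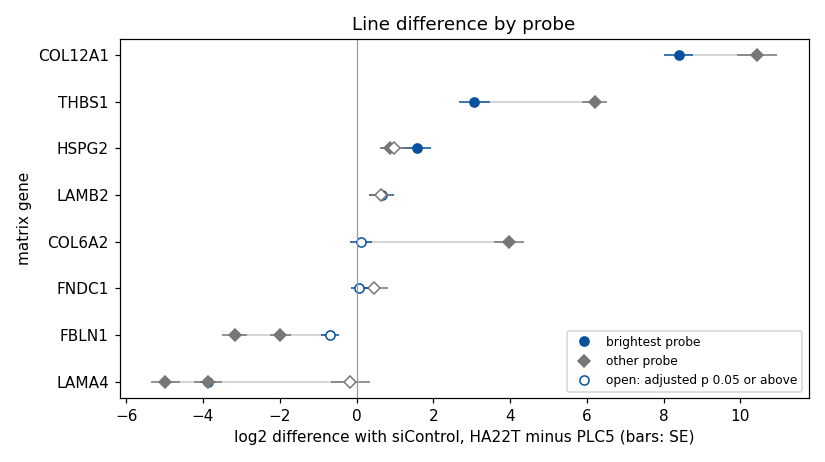
Log2 difference with siControl, HA22T minus PLC5, of each counted probe of the 8 matrix genes with several counted probes, with bars for the SE, circles for the brightest probe, diamonds for others and open symbols where the adjusted p was 0.05 or above. In COL6A2, FBLN1, HSPG2 and LAMA4 the probes of a gene differed in their call, and in 0 of the 8 genes did they differ in sign.

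The lines also differed in markers of liver cell identity, and their part in the matrix differences was not tested. Of 9 hepatocyte markers 8 were lower in HA22T, led by TF and APOB with differences of −9.62 and −9.55, and the mean log2 level of the list lay between −3.72 and −3.49 on HA22T siControl arrays and between 1.30 and 1.85 in PLC5. Of 9, 0 were undetected on all 3 HA22T siControl arrays. Of 8 fibroblast and stellate cell markers, VIM (vimentin) was higher in HA22T, by 5.54, and TAGLN was lower, by 1.02 on the log2 scale. THY1 and DES differed by −0.61 and −0.36 and did not pass. The list's mean level lay between −3.42 and −3.01 in HA22T and between −4.43 and −3.68 in PLC5. PDGFRA and LRAT were above background on 0 arrays. ACTA2 and PDGFRB were too dim to be counted. ACTA2 was above background on 0 PLC5 siControl arrays and was at least 2.02-fold higher in HA22T, and PDGFRB differed by 0.15. PECAM1 alone of 5 endothelial markers was called (−5.41), CD14 alone of 4 blood cell markers (3.86), and 0 of the 5 epithelial markers read.

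Some of the differences rest on probes near background in PLC5. Of the 30 genes above background on all 6 siControl arrays, 10 were higher in HA22T and 4 in PLC5, against 21.7% of 26694 such probes called either way. Within slide 1, which holds 1 PLC5 siControl array, all 22 called genes kept their sign. The ratio of a gene's difference to that on both slides had a median of 0.999. It ran from 0.508, in ABI3BP (1.44 against 2.84), to 1.18. The arrays of slide 1 are among those that called these genes, so such agreement was largely built in and cannot test a slide effect. With slide as a block the numbers of genes called toward HA22T and PLC5 were 16 and 4.

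The line difference was also taken between the siGALNT1 arrays, which are other samples of the same lines. Both line differences come from a single fit and share its estimate of the spread. The lines were split over the slides in the same way, and same-numbered HA22T arrays deviated together. Agreement between them is therefore not an independent replication. Of 40 matrix genes counted, 17 were higher in HA22T, against 9.79% of all 36741 counted probes, and 4 were higher in PLC5, against 13.1%, with 22.9% of probes called either way. The sign was positive for 31 of 40 genes and 55.2% of probes, and the arrays of the lines did not overlap for 26 genes higher in HA22T and 8 higher in PLC5, against 20.4% of probes each way. Of the 22 genes called with siControl, 19 were called here in the same direction. LAMA5, AGRN and THBS2 were called with siControl alone, COL7A1 and LAMB3 with siGALNT1 alone; the difference of the siRNA change between lines, which tests this, called 0 of 39100 probes. COL12A1 read 0.97, 1.40 and 1.73 in HA22T and −6.81, −5.44 and −5.94 in PLC5 (difference 7.43 ± 0.38), and LUM read −0.58, 0.06 and 0.28 against −6.78, −5.06 and −5.85 (5.82 ± 0.46). FN1 read 0.02, 0.19 and 0.42 in HA22T and 4.41, 4.78 and 4.34 in PLC5 (difference −4.30 ± 0.25, limma adjusted p = 6.86e-07), and no HA22T array came near a PLC5 array. SPARC read −2.53, −1.08 and −2.05 against −6.79, −7.71 and −4.70, with 1 PLC5 array above background (limma adjusted p = 0.000346). ABI3BP read −3.27, −2.91 and −2.73 in HA22T and −6.77, −6.19 and −8.12 in PLC5, with 0 of 3 PLC5 arrays above background. It was counted through HA22T alone and was at least 6.31-fold higher there (limma adjusted p = 0.00076, a detected signal against background). COL7A1 was 2.65-fold higher in HA22T (limma adjusted p = 0.0108) and LAMB3 was 2.39-fold higher in PLC5 (limma adjusted p = 0.0183).

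Upstream sequences of 4 genes called in the line difference are shown as examples, chosen after their values were seen: COL12A1 and THBS1, which were higher in HA22T, and FN1 and LAMA4, which were higher in PLC5. Each is the 250 bases before the RefSeq start in GRCh38.p14, written 5′ to 3′ on the gene's strand: COL12A1 at chr6:75206054-75206303 (minus strand), THBS1 at chr15:39580829-39581078 (plus strand), FN1 at chr2:215436069-215436318 (minus strand) and LAMA4 at chr6:112254568-112254817 (minus strand). Capitals mark matches, on either strand and with overlaps allowed, to the TATA box (TATAAA), the CCAAT box (CCAAT), the GC box (GGGCGG), the AP-1 site (TGANTCA) and the E-box bound by SNAI and ZEB factors (CACCTG).
COL12A1: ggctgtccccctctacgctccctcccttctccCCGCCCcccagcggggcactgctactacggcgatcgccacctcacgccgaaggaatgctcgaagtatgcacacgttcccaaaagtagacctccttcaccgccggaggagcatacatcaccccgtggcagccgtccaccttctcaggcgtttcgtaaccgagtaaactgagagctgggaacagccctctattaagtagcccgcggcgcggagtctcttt
THBS1: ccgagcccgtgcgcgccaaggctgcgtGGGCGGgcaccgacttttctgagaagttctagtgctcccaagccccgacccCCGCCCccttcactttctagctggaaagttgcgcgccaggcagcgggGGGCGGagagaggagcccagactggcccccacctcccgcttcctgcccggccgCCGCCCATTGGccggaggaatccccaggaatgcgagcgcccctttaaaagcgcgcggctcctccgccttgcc
FN1: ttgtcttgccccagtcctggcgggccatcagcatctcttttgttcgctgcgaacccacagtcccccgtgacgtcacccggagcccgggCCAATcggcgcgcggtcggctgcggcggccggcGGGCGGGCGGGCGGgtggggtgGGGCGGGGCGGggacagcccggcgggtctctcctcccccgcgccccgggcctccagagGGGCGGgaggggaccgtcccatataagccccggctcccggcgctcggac
LAMA4: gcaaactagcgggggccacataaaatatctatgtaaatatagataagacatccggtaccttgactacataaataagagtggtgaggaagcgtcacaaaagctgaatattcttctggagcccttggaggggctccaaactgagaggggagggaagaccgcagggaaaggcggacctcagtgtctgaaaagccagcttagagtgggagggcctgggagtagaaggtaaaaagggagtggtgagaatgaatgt
The GC box matched 1 time in COL12A1, 4 times in THBS1 and 6 times in FN1, and LAMA4 held none of the 5 motifs in this window. THBS1 and FN1 each held 1 CCAAT box. The GC content was 61.2% in COL12A1, 69.6% in THBS1, 76.4% in FN1 and 48.4% in LAMA4. Of 45 matrix genes 34 had a sequence in the table, with a median GC content of 67.2% against 57.6% for all 27305 genes. The GC box stood in 25 of the 34 and in 41.3% of all, the CCAAT box in 9 and 32.68%, the TATA box in 6 and 11.42%, the E-box in 4 and 17.48%, and the AP-1 site in 2 and 6.845%.

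Some genes of the same pathway that are not members also differed between the lines. Of all probes counted with siControl, 11.0% were called toward each line and 22.0% either way. Of 25 genes of collagen-making enzymes and chaperones 22 were counted with siControl, and 5 were higher in HA22T and 4 in PLC5. Their median difference was 0.04, beside 0.04 for all counted probes. The lysyl hydroxylase PLOD2, the prolyl 3-hydroxylase P3H2 and the lysyl oxidase LOXL1 were higher in HA22T, by 3.39, 4.06 and 3.91. The collagen chaperone FKBP10 was lower in HA22T by 4.93 on the log2 scale (limma adjusted p = 9.51e-06). Of 20 further collagen and laminin chains 14 were counted, with 4 higher in HA22T, among them the fibril-associated chain COL16A1 at 2.10, and 1 higher in PLC5, the fibrillar chain COL5A3 at −3.05. Of 8 matrix receptors other than integrins 7 were counted. The collagen receptor DDR2 and the hyaluronan receptor CD44 were higher in HA22T, by 5.76 and 3.08, and the syndecan SDC1 was lower, by 2.35 on the log2 scale.

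The knockdown was checked on the targeted gene first. GALNT1 read 1.32, 0.75 and 0.85 in HA22T with siControl and −3.15, −3.68 and −5.55 with siGALNT1, and 0.87, 0.37 and 0.61 against −1.93, −3.47 and −3.92 in PLC5. Every siGALNT1 array lay below every siControl array of its line. The change was −5.10 ± 0.61 in HA22T (34.3-fold, limma adjusted p = 0.0708) and −3.72 ± 0.61 in PLC5 (13.2-fold, adjusted p = 1.00), and a second probe passed in HA22T alone (−4.75, limma adjusted p = 0.0305; −3.03 in PLC5).

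**Figure D4:**
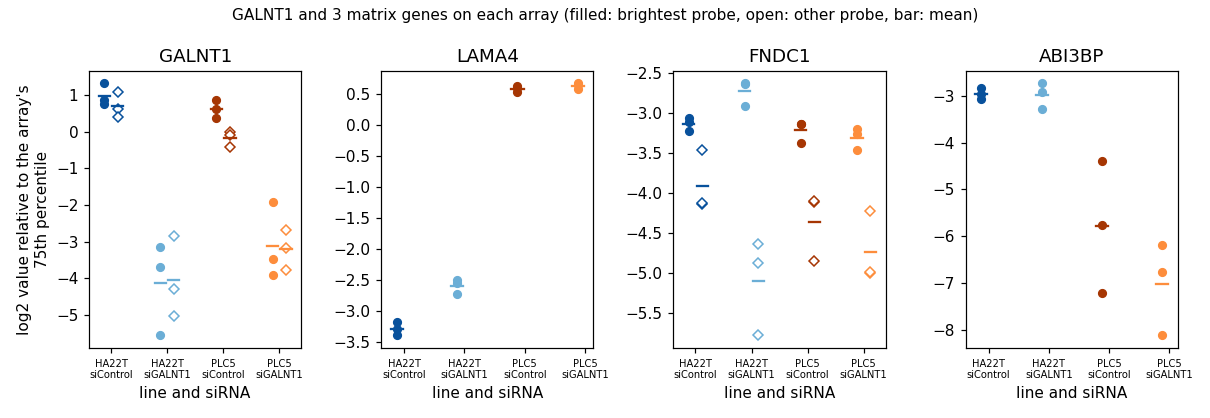
Log2 value relative to the array's 75th percentile of GALNT1, LAMA4, FNDC1 and ABI3BP on each of the 12 arrays, with the group mean as a bar, filled symbols for the brightest probe and open ones for the other probe of GALNT1 and FNDC1. GALNT1 was lower on all 6 siGALNT1 arrays, LAMA4 in HA22T had means of −3.29 with siControl and −2.60 with siGALNT1, and the probes of FNDC1 had opposite differences in HA22T.

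No matrix gene passed the adjusted threshold in either line: 0 of 41 counted in HA22T and 0 of 38 in PLC5 by limma. The probes called among all were 0.00275% in HA22T (1 of 36327, the second GALNT1 probe) and 0% in PLC5 (0 of 38070). At an unadjusted p below 0.05 the matrix genes numbered 1 in HA22T, against 2.99% of all counted probes, and 0 in PLC5, against 1.33%. The study's criterion, a change of at least 1.5-fold with an unadjusted p below 0.05, was met by 0 matrix genes in PLC5, against 0.297% of probes upward and 0.996% downward. The groups did not overlap for 4 matrix genes higher and 2 lower with siGALNT1 in HA22T, against 7.01% and 5.02% of probes, and for 0 of either kind in PLC5, against 2.49% and 3.45%. The sign was positive for 17 of 41 genes in HA22T and 23 of 38 in PLC5, beside 42.5% and 52.2% of probes. The median change was −0.07 in HA22T and 0.06 in PLC5, beside −0.06 and 0.01 for all counted probes. With 3 arrays a group the 95% interval of a matrix gene's change had a median half-width of 0.74 in HA22T and 0.67 in PLC5. The interval left out a 2-fold change in both directions for 21 of 41 genes in HA22T and 26 of 38 in PLC5. It left out a 1.5-fold change for 1 and 4. For the remaining genes a change of that size lay inside the interval. The brightest probe of GALNT1 itself, 34.3-fold lower in HA22T and 13.2-fold lower in PLC5, did not pass the adjusted threshold in either line. The count of 0 calls is therefore not a measure of how small the changes were.

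Read from the brightest probe, LAMA4 in HA22T was the matrix gene at an unadjusted p below 0.05 and also past the study's criterion, which 1.82% of all counted probes met upward and 1.05% downward. It read −3.40, −3.29 and −3.18 with siControl and −2.51, −2.56 and −2.73 with siGALNT1. The groups did not overlap, and the exact two-sided permutation test gave p = 0.1, the smallest it can give with 3 against 3. The change was 0.69 ± 0.20, or 1.61-fold (limma adjusted p = 1.00; unadjusted 0.00566), and leaving out each array in turn gave 0.64 to 0.75. Its other counted probes gave 0.10 and 0.21. In PLC5, where LAMA4 read 0.59, 0.53 and 0.63 with siControl and 0.67, 0.65 and 0.59 with siGALNT1, the change was 0.05 ± 0.20. The difference between the lines' changes was 0.64 (unadjusted p = 0.0474, limma), in a test that called 0 of 39100 probes after adjustment and 2.43% of them before it. Since the replicate numbers paired the HA22T arrays, a fit with the replicate number as a block was also made, and 2 genes then met the criterion in HA22T, LAMA1 (1.42) and LAMA4, with 0 past the adjusted threshold.

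Neither gene that the study names passed the adjusted threshold. ABI3BP differed between siGALNT1 and siControl by −0.02 ± 0.63 in HA22T and by −1.24 ± 0.63 in PLC5. In PLC5 it was 2.36-fold lower (unadjusted p = 0.0756, limma) and too dim to be counted. By this test it met the study's criterion in neither line. The PLC5 value ran from −1.95 without PLC5 siControl replicate 2 to −0.54 without PLC5 siControl replicate 1. FNDC1 read −2.64, −2.63 and −2.92 with siGALNT1 in HA22T on its brightest probe, a difference of 0.41 ± 0.21 (limma adjusted p = 1.00; unadjusted 0.0837). Its other probe read −4.13, −3.46 and −4.12 with siControl and −5.78, −4.87 and −4.63 with siGALNT1, a difference of −1.19 ± 0.38 (limma adjusted p = 1.00; unadjusted 0.00936). This other probe thus met the study's criterion, with groups that did not overlap, while the brightest did not. The 2 probes had opposite signs in HA22T, and in PLC5 they gave −0.10 and −0.38.

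The other genes are given by the range of their log2 differences, siGALNT1 minus siControl, in each role group, none of which held a call. Fibrillar collagens had 2 counted genes with differences of −0.35 to −0.26 in HA22T and −0.12 to 0.07 in PLC5. Basement membrane collagens ranged from −0.15 to 0.62 in HA22T, the highest being COL18A1, and from −0.08 to 0.50 in PLC5. The remaining collagens ranged from −0.53 to 0.57 and from −0.16 to 0.44. Laminin chains ranged from −0.37 to 1.57 in HA22T, where the highest, LAMA1, had 2 usable values per group (unadjusted p = 0.0658, limma), and from −0.25 to 0.42 in PLC5. Nidogens and proteoglycans of the basement membrane ranged from −0.18 to 0.21 and from −0.46 to 0.34. Adhesive glycoproteins ranged from −0.52 to 0.41 and from −0.35 to 0.39, microfibril and cross-linking genes from −0.28 to 0.20 and from −0.38 to 0.28, and the remaining proteoglycans from −0.18 to 0.50 and from −0.15 to 0.27. In the lists of collagen-making enzymes, further chains and matrix receptors, 0 genes were called in either line.

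**Figure D5:**
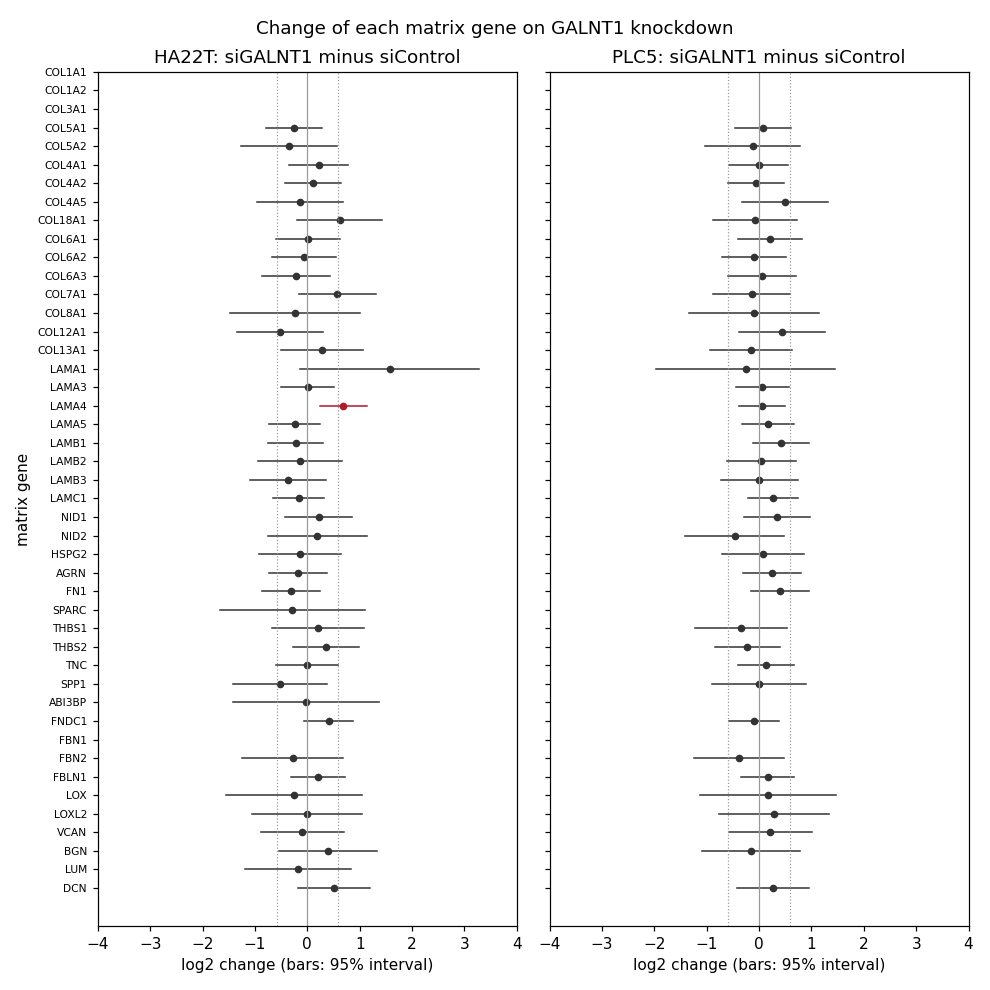
Log2 change, siGALNT1 minus siControl, of each counted matrix gene in HA22T (left) and PLC5 (right), 3 arrays per group, with bars for the 95% interval and dotted lines at a 1.5-fold change. LAMA4 in HA22T, in red, at 0.69, was the gene whose brightest probe was past the 1.5-fold and unadjusted p criterion.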

How the data were processed

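RNA of 12 cultures was hybridized to one-color Agilent arrays and scanned, and the images were read with Feature Extraction software (version 10.5.1.1 in the submitters' processing notes). As deposited, the intensity of each spot is the processed signal, with background already subtracted, beside median signals and flags. The authors also deposited a log2 value table whose columns correlated with the processed signal at 1.0; it served as an alternative.

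Here the log2 of the processed signal was taken minus the 75th percentile of all spots of the array that are not controls. Spots marked as non-uniform were then left out, as in the study's methods, and spots of a probe were averaged. Of 50599 probes 28174 were named through RefSeq accessions (GRCh38.p14 table), and 61 had no value. The brightest probe with a value in every group stood for a gene. Groups were compared in a single limma fit (version 3.58.1, R 4.3.3), with Benjamini-Hochberg adjustment over probes well above background on at least 3 of 6 arrays, at a threshold of 0.05. Where a group was above background on 0 arrays, the fold is a bound against the dimmest signal above background. Such a probe was counted through the other group alone, and its p-value sets a detected signal against background. The fit was tested on simulated data.

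The genes and lists were chosen with earlier results of these data known. Values on every array are given for GALNT1, for the 8 largest called line differences in each direction, for genes undetected in a line, for genes past a 1.5-fold change with unadjusted p below 0.05 after siGALNT1, and for ABI3BP and FNDC1; values of further genes were added beside them, chosen after they were seen. The number of arrays limits the precision. Alternatives were normexp background correction, quantile, median and unflagged-spot scaling, the deposited table, no filter and a filter on all 6 arrays, non-uniform spots kept, slide and replicate blocks, slide 1 alone, a trended variance, the methods' t-test, the mean over probes, each line fitted alone and each array left out. The labels give replicate numbers and no shared batch. Deviations from the group means of same-numbered HA22T arrays correlated at 0.55, 0.40 and 0.43, so the numbers were taken to pair them; in PLC5 the correlations were 0.71, −0.02 and 0.16 and across lines they ran from −0.29 to 0.35, and there the numbers were not taken as pairs.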

Additional observations from a re-analysis of the deposited data

How the results depend on the processing

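Of 1089 values recomputed under the alternatives, 1051 were classed as unchanged. For a value of a single gene this meant the same direction and the same side of the threshold. Of such values 13 changed side and 7 changed sign. They cover GALNT1, LAMA4, ABI3BP, FNDC1 and the genes with the largest called line differences with siControl. Smaller called differences, such as those of COL6A3, LAMA5, LAMC1, NID2, HSPG2, AGRN and LOX, were not among them. These totals therefore do not describe how stable every call was. Counts of genes and medians were classed by how far they moved, so a small shift in a count was classed as unchanged. Among genes above background on all 6 arrays, those higher in HA22T numbered 10 of 30 with siControl and 9 of 28 with siGALNT1. Of all such probes, 3111 of 26694 and 2559 of 23347 were called higher in HA22T, and 21.7% and 22.6% were called either way. Within slide 1, with 1 PLC5 array, 10 were higher in HA22T and 2 in PLC5 with siControl, and 2 were higher in PLC5 with siGALNT1. The methods' t-test also gave 2 higher in PLC5 with siGALNT1; for the siGALNT1 changes it called 0 matrix genes after Benjamini-Hochberg adjustment and, at the study's criterion, 1 in HA22T and 0 in PLC5. With an array left out, the counts toward HA22T ran from 17 to 18 with siControl and from 14 to 17 with siGALNT1, and those toward PLC5 from 4 to 5 and from 3 to 4.

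The number of matrix genes past a 1.5-fold change and an unadjusted p below 0.05 in HA22T was 1 and became 4 with normexp, 2 with no filter (FBN1 joining, which was above background on 0 arrays), 2 with slide as a block, 2 with the replicate block, 2 with a trended variance, 2 with the line fitted alone and 0 with the mean over probes. Leaving out an array gave 1 to 2 in HA22T, with COL7A1 joining without siGALNT1 replicate 1 and SPP1 without siControl replicate 2, and 0 to 1 in PLC5, with COL12A1 without siGALNT1 replicate 1 and THBS1 without siGALNT1 replicate 3. The replicate block changed no other count by over 1.5 times, and the adjusted count was 0 for the siGALNT1 changes under every alternative run.

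Values near 0 changed sign. The ABI3BP difference in HA22T became 0.10 with the percentile over unflagged spots, a choice made after seeing the data, and ran from −0.14 to 0.13 with an array left out. With the mean over probes FNDC1 gave −0.39 in HA22T and −0.15 for the difference between lines, and its siControl line difference was −0.00184 within slide 1 and ran from −0.00228 to 0.12 with an array left out. FNDC1 gained a line call on siGALNT1 arrays with quantile scaling (0.75, limma adjusted p = 0.0167) and the unflagged percentile (0.81, limma adjusted p = 0.0298). On the same arrays SPARC and NID1 lost their line calls by the methods' t-test (adjusted p = 0.0697 and 0.0748). COL6A3, LAMB3 and LOX lost theirs there with slide as a block (limma adjusted p = 0.0722, 0.0631 and 0.160). ABI3BP lost its siControl line call with slide as a block, within slide 1 and by the methods' t-test, COL6A3, LAMA5, LAMC1, NID1, NID2, HSPG2, AGRN, THBS2 and LOX lost theirs within slide 1, and GALNT1 passed in both lines with normexp. On siGALNT1 arrays 42.8% of all line calls were toward HA22T, against 54.8% with quantile scaling and 59.2% with the unflagged percentile; those scalings moved the median of all probes by 0.11 and 0.22. The causes were not tested. The difference between lines has no value by the methods' t-test or with each line fitted alone.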
